A study of Arabidopsis thaliana with 6 samples.

Results

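The genes described here are the 51 Arabidopsis thaliana loci that encode the core of nuclear auxin perception, taken from a list of locus names that sets no threshold on a measured value but was drawn up with earlier results of these data known: 6 auxin receptors (TIR1 and AFB1 to AFB5), 29 Aux/IAA repressors and 16 auxin response factors (ARF). Of these 51, 50 were among the 26185 genes that had a read in at least 1 library, and 47 passed the filter on low counts, as did 21326 genes in all.

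The series sequenced messenger RNA from dark-grown, 3-day-old seedlings in 3 groups of 2 libraries each, labelled as biological repeats. Col_Kyn is the accession Col-0 on MS medium with kynurenine, given in the labels as 25 mM (whether that unit is right was not checkable). wei8tar2_MS is a line in the Col-0 background on MS medium, homozygous for wei8 (a mutation in TAA1) and heterozygous for tar2, so that its progeny segregate for tar2; the labels do not say which progeny were pooled. Col_MS is Col-0 on MS medium. All 3 groups were imbibed in the cold for 3 days, given a few hours of light and kept for 3 days in the dark at 22 °C. TAA1 and TAR2 convert tryptophan on the main route to the auxin indole-3-acetic acid, and kynurenine is known to inhibit this enzyme family, so both tested conditions bear on auxin supply; the hormone itself was not measured.

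As background, auxin acts as a molecular glue. TIR1 and the AFB proteins are F-box subunits of a ubiquitin ligase, and auxin joins them to the degron of an Aux/IAA protein, which is then ubiquitinated and destroyed by the proteasome. While they last, Aux/IAA proteins sit on ARF transcription factors at the promoters of auxin-responsive genes and recruit the corepressor TOPLESS. Many Aux/IAA genes are themselves switched on by auxin through ARF binding sites in their promoters, which makes their transcripts a commonly used readout of the pathway, whereas receptors and ARF genes are better known for control by small RNAs.

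Library totals ran from 18143395 to 31817638 counted reads, so that 3 reads, the most that a count of 0 allows, correspond to 0.0943 to 0.165 CPM, the read count scaled to a common library size. The targeted genes were used to check which libraries carry the mutant label. Their transcript levels do not give the zygosity at tar2, which was not checked. TAA1 had 7.89 and 8.36 CPM in wei8tar2_MS, against 37.8 and 38.7 CPM in Col_MS (log2 fold change -2.24 ± 0.11 SE, edgeR adjusted p = 0.000562), and TAR2 had 2.90 and 2.01 CPM in wei8tar2_MS, against 10.1 and 8.11 CPM in Col_MS (-1.88 ± 0.23, adjusted p = 0.0301). The TAR2 call was lost without Col_MS replicate 1 or either wei8tar2_MS library (edgeR adjusted p = 0.0713, 0.208 and 0.309), where the fold change lay between -2.17 and -1.65, whereas TAA1 passed whichever library was left out. PORA, a chlorophyll-precursor reductase abundant in dark-grown seedlings, lay between 1097 and 1408 CPM in all 6 libraries. The 3 listed markers of etiolated seedlings (PORA, PORB and HLS1) were less even in sum. They had 2517 and 3642 CPM in Col_Kyn and 2999 and 3169 CPM in wei8tar2_MS, against 3063 and 3517 CPM in Col_MS. The 2 Col_MS libraries differed from each other more than the 2 wei8tar2_MS libraries did (chi-square per degree of freedom of 37.6 in Col_MS and 5.10 in wei8tar2_MS, with 27.5 in Col_Kyn), and this gap touches the results on Aux/IAA genes below.

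Sequences that are known handles of regulation in these genes are shown first. The ARF proteins bind the element TGTCTC and, with higher affinity, TGTCGG. Both were searched on both strands in the 300 bases from 250 before to 50 after each start in RefSeq's TAIR10.1 annotation; matches that shared a base were all counted. A match was found in 16 of 29 Aux/IAA promoters (55.2%), 1 of 6 receptor promoters (16.7%), 3 of 16 ARF promoters (18.8%) and 5123 of 27444 promoters of protein-coding genes (18.7%). TGTCTC alone was found in 12 Aux/IAA promoters (41.4%), against 14.2% of all, and TGTCGG in 6 (20.7%), against 5.12% of all. The promoters of IAA5 and IAA19 held the most matches of all 51, 3 each, and that of IAA1 held 1 of each motif. They are printed beside that of IAA17, a promoter of a highly expressed member with no match. Capitals mark a motif on either strand, GAGACA and CCGACA being the reverse complements.
IAA1 promoter, chr4:8360746-8361045, plus strand: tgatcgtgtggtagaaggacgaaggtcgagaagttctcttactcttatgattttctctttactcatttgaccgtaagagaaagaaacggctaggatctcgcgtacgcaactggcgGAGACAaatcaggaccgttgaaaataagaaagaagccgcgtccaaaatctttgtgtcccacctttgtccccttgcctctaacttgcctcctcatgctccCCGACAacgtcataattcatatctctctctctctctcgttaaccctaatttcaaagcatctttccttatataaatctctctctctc
IAA5 promoter, chr1:5366448-5366747, minus strand: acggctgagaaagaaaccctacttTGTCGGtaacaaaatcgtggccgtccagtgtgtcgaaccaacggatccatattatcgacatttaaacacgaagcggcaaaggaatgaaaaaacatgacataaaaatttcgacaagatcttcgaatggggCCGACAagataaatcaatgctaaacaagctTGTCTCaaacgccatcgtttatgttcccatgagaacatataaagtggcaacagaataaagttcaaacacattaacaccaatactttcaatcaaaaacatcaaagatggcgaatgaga
IAA19 promoter, chr3:5263751-5264050, plus strand: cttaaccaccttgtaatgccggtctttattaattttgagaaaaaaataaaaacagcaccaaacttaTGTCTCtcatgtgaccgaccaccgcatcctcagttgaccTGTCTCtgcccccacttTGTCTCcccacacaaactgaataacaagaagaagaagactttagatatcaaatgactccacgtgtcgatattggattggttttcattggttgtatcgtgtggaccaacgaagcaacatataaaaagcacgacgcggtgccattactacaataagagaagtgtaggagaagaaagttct
IAA17 promoter, chr1:1135828-1136127, plus strand: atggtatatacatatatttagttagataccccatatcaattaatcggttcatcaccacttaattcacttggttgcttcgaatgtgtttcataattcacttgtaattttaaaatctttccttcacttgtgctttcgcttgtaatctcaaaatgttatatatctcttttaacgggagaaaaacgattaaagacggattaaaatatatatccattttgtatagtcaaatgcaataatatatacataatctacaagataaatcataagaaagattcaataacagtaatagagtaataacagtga
The share with a match is a description of these windows, and a window without one may hold sites elsewhere or of another spelling.

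Small RNAs known to guide cleavage of receptor and ARF transcripts are shown with the stretches of the members that pair with them. Only miR393, miR160 and miR167 were searched, families picked for their known receptor and ARF targets. The search therefore does not tell whether other small RNAs pair with Aux/IAA transcripts. In the mature RNAs capitals mark the seed (bases 2 to 8). In the sites, printed as DNA, capitals mark bases that form Watson-Crick pairs with the small RNA. Each site lies in coding sequence.
miR393a-5p and miR393b-5p: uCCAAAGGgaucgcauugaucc
TIR1 site, chr3:23273727-23273748, minus strand: GagaCAATGCGATCCCTTTGGA
AFB1 site, chr4:1405341-1405362, minus strand: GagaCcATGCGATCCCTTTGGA
AFB2 site, chr3:9870237-9870258, plus strand: GaAaCAATGCGATCCCTTTGGA
AFB3 site, chr1:4369085-4369106, minus strand: GaAaCAATGCGATCCCTTTGGA
miR160a-5p, miR160b and miR160c-5p: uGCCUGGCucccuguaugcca
ARF17 site, chr1:29274189-29274209, plus strand: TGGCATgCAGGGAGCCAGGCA
ARF10 site, chr2:12115741-12115761, plus strand: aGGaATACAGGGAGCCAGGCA
ARF16 site, chr4:14704141-14704161, minus strand: gGGttTACAGGGAGCCAGGCA
miR167a-5p and miR167b: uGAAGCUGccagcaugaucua
ARF6 site, chr1:10686478-10686498, minus strand: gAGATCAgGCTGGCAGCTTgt
ARF8 site, chr5:14633841-14633861, plus strand: TAGATCAgGCTGGCAGCTTgt
With a mismatch scored 1, a G:U pair 0.5 and a limit of 4, the search over 1 transcript of each of 27444 genes found a site for miR393 in 9 genes, 4 of them receptors. For miR160 it found 5 genes, 3 of them ARF genes, and for miR167a 20 genes, of which 2 were ARF genes. AFB4 and AFB5 had no match at this limit. The libraries do not measure mature small RNAs. Of their precursor transcripts, MIR393A, MIR393B and the 3 MIR160 genes reached at most 0.172 CPM in a library, about the level of the floor. MIR167D had 3.69 and 4.92 CPM in Col_Kyn and 6.06 and 3.90 CPM in wei8tar2_MS, against 5.24 and 7.13 CPM in Col_MS. Its mature RNA, miR167d, differs in sequence from the miR167 printed here and matched ARF8 but not ARF6 at this limit.

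Levels of different genes are compared as CPM per kilobase of the longest spliced transcript. Among the receptors, TIR1 had the highest level, 44.9 to 53.4 CPM per kilobase over the 6 libraries, followed by AFB1 at 34.1 to 43.1. AFB2 (28.6 to 32.9) and AFB5 (27.3 to 30.8) overlapped, AFB3 lay below them (19.8 to 21.3), and AFB4 was the lowest (6.64 to 7.72). IAA7 (196 to 276) and IAA17 (174 to 298) led the Aux/IAA genes and could not be ordered between themselves. IAA9 followed (127 to 159). IAA19, IAA16 and IAA8 overlapped each other between 83.1 and 119, and the low end of IAA8 reached the next gene, IAA2 (58.5 to 84.1). Among the ARF genes the order ARF2 (50.9 to 63.3), ARF6 (27.4 to 35.4) and ARF1 (20.1 to 21.9) was free of overlap, and from ARF4 down to ARF3 each neighbour overlapped the next. Parts of these orders depend on the length used. Per kilobase of the gene length given with the counts, which includes introns, TIR1, AFB1, IAA7, IAA17, ARF2 and ARF6 still led their classes. On that scale the mean of ARF1 was 10.4, below ARF7 (13.7) and ARF4 (13.1). IAA19 (62.6) then lay below IAA16 (97.1).

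**Figure D1:**
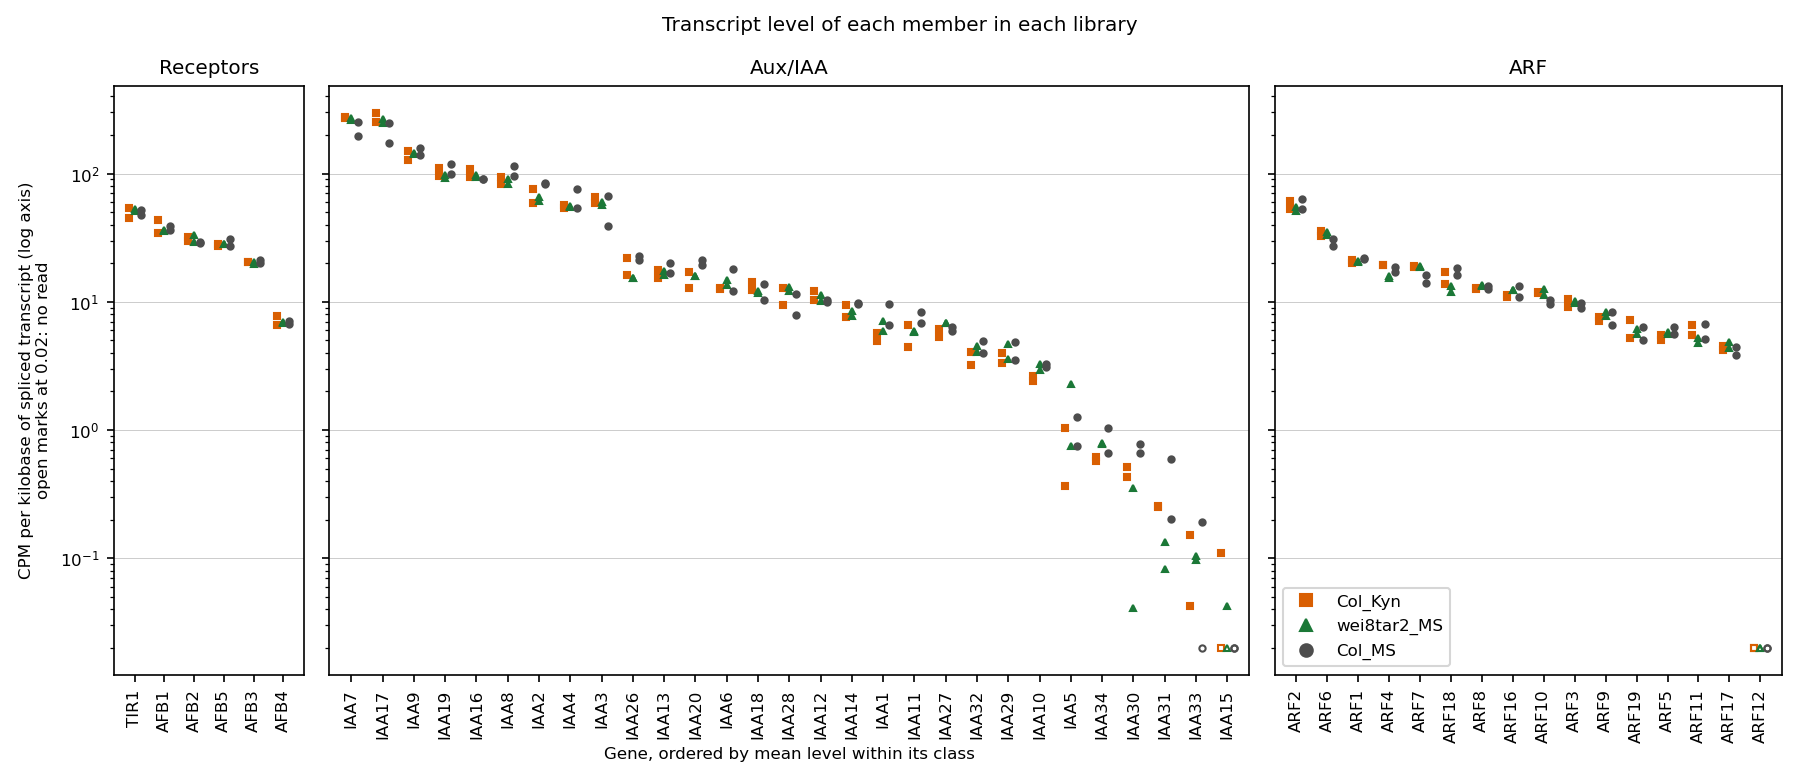
Level of each of the 51 genes in each library, in CPM per kilobase of spliced transcript on a log axis, with Col_Kyn, wei8tar2_MS and Col_MS marked by colour and shape; open marks at the foot stand for libraries with no read. For most genes the 6 points lie close together beside the distance between genes, from IAA7 and IAA17 at the top to IAA15 and ARF12 at the foot.

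Repressor transcripts outweighed receptor transcripts in every library. Summed per class, Aux/IAA genes had 1359 and 1241 CPM per kilobase in Col_Kyn and 1236 and 1281 in wei8tar2_MS, against 1114 and 1375 in Col_MS. The receptors had 175 and 174 in Col_Kyn and 176 and 172 in wei8tar2_MS, against 174 and 171 in Col_MS. The ARF genes had 238 and 242 in Col_Kyn and 234 and 229 in wei8tar2_MS, against 245 and 220 in Col_MS. The ratio of Aux/IAA to receptor transcripts was thus 7.79 and 7.15 in Col_Kyn and 7 and 7.46 in wei8tar2_MS, between the values of the Col_MS libraries, 6.41 and 8.02. A few genes carried each class. IAA7 and IAA17 made up 33.2% to 42.2% of the Aux/IAA sum, TIR1 and AFB1 48.7% to 52.2% of the receptor sum, and ARF2 and ARF6 36.4% to 38.8% of the ARF sum.

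None of the 47 tested genes was called in either comparison with Col_MS, which both conditions share. With Col_Kyn, 0 of 47 had an edgeR quasi-likelihood adjusted p under 0.05, where 78 of 21326 genes did (0.366%). With wei8tar2_MS it was 0 of 47, where 230 of 21326 did (1.08%). DESeq2, which called 3.52% and 6.25% of all tested genes in the same comparisons, called 0 members in each, and limma-voom, which called 0.234% and 1.01%, also called 0. At an unadjusted p under 0.05 there were 3 members with Col_Kyn, against 17.0% of all tested genes, and 5 with wei8tar2_MS, against 20.6% of all. With Col_Kyn, 9 members lay in both libraries above both Col_MS libraries and 11 below, where 20.2% and 23.4% of all tested genes did. With wei8tar2_MS the counts were also 9 and 11, beside 26.6% and 29.0%. These shares are no higher than those of the table as a whole.

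The data bound the changes of most members, in a fit where all 3 groups share the estimate of each gene's spread. Replicates differed more in Col_MS and Col_Kyn than in wei8tar2_MS, so intervals with Col_Kyn may be too narrow. The 95% interval of the fold change lay within 2-fold in both directions for 43 of 47 members with Col_Kyn and 44 of 47 with wei8tar2_MS, which is 91.5% and 93.6%. The same held for 76.1% and 74.2% of all tested genes, and for 94% and 92.1% of tested genes at a mean of 10 CPM or more, so the members' share was close to that of well-expressed genes. It lay within 1.5-fold for 31 of 47 members in each (66%), against 46.7% and 44.5% of all tested genes and 69.6% and 66.1% of those at 10 CPM or more. The Aux/IAA genes were the least bounded class, with 10 of 26 within 1.5-fold with Col_Kyn (38.5%) and 12 of 26 with wei8tar2_MS (46.2%). In seedling extracts, fewer cells of a type and less RNA per cell cannot be told apart. Separate cultures are not described for the repeats beyond the word biological, so the p-values measure the spread between these libraries.

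**Figure D2:**
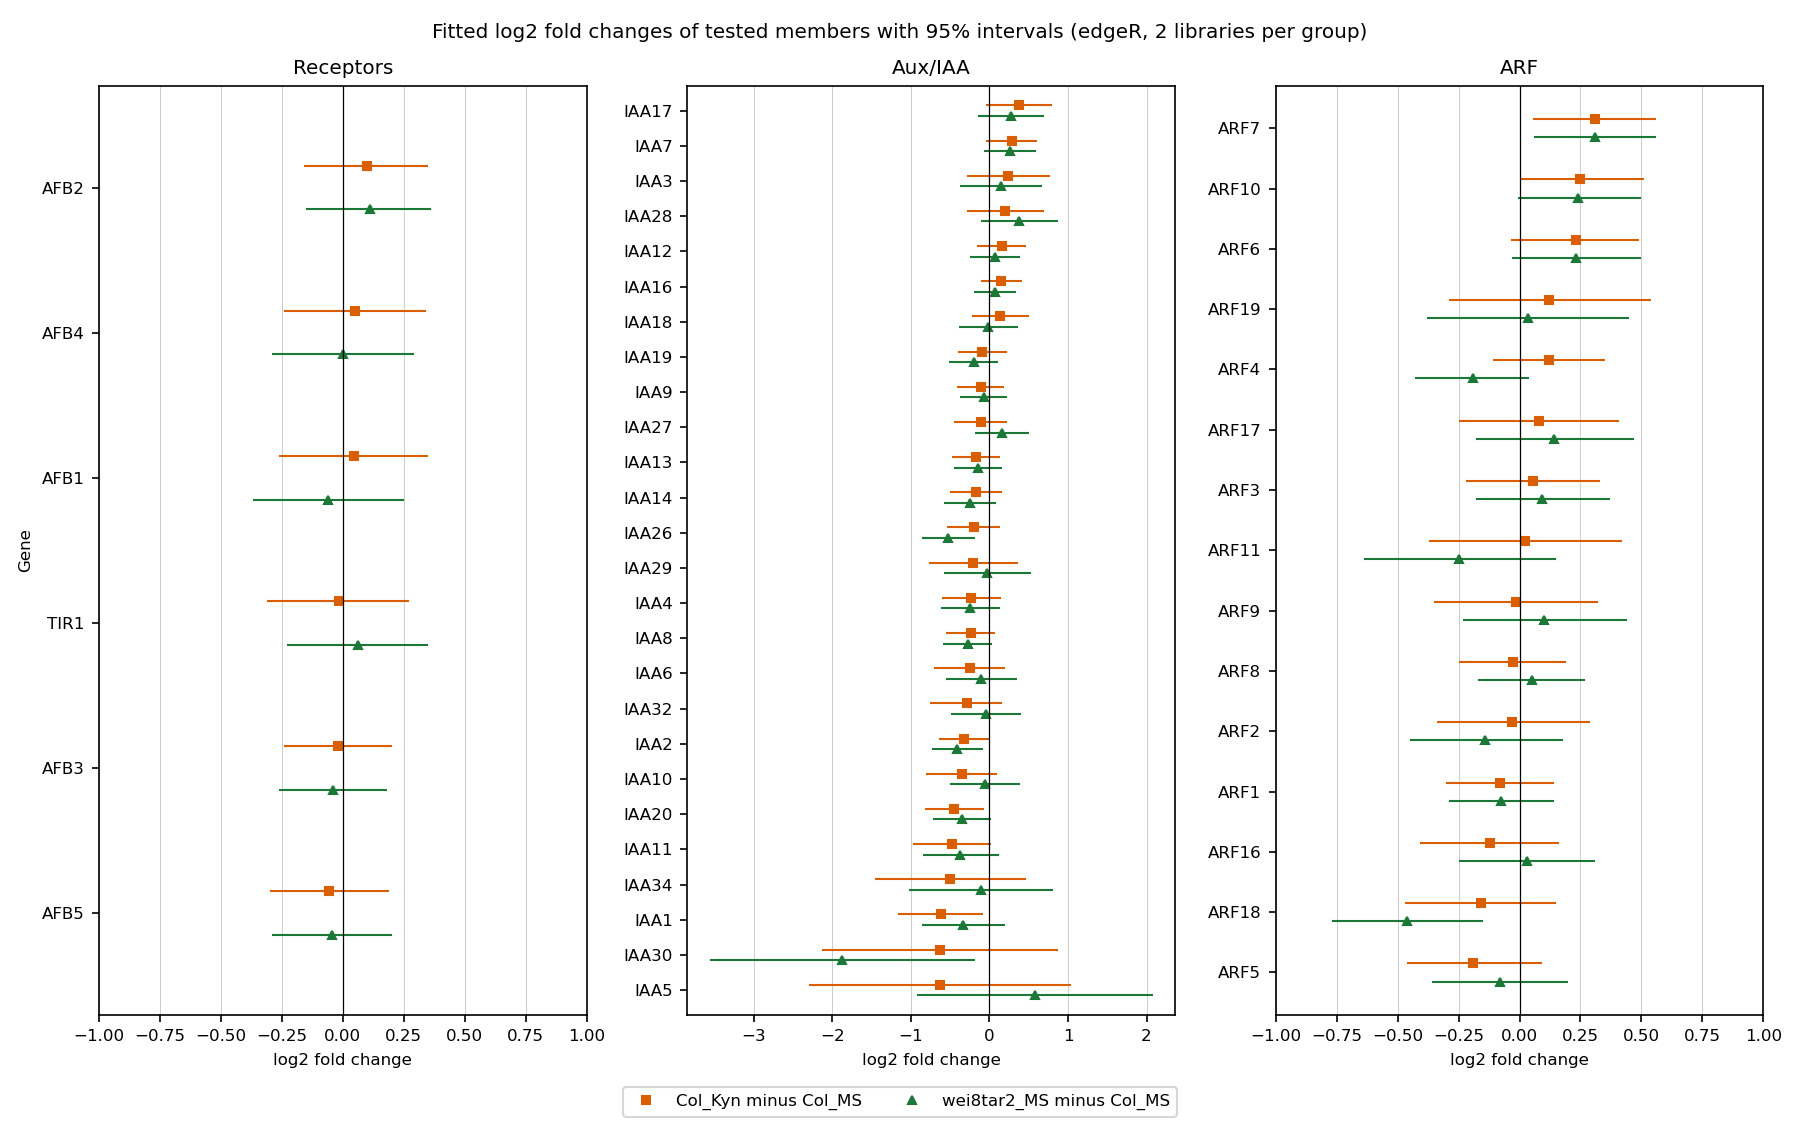
Fitted log2 fold change of each of the 47 tested members with its 95% interval (edgeR, 2 libraries per group), for Col_Kyn minus Col_MS and wei8tar2_MS minus Col_MS, ordered by the first within each class; the horizontal scale of the Aux/IAA panel is wider. The receptors stay within 0.11 of 0, and the widest intervals belong to IAA5 and IAA30, members with few reads.

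The 6 receptors, which hold the hormone-binding pocket, had the steadiest levels of the 3 classes. Their ratio of highest to lowest library had a median of 1.16, beside 1.45 for all tested genes and 1.33 for tested genes with a mean of at least 10 CPM, which all 6 receptors exceed. TIR1 (AT3G62980, chr3:23273065-23276630), the founding receptor, had 119 and 142 CPM in Col_Kyn and 140 and 134 CPM in wei8tar2_MS, against 138 and 126 CPM in Col_MS. The Col_Kyn libraries were the lowest and the highest of the 6, and every pair of groups overlapped. Its log2 fold change was -0.017 ± 0.12 with Col_Kyn and 0.062 ± 0.12 with wei8tar2_MS (SE, n = 2 libraries per group), with intervals of 0.809-fold to 1.21-fold and 0.855-fold to 1.28-fold.

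AFB1 (AT4G03190, chr4:1404887-1407402), known for a role in rapid auxin responses of the root, had 100 and 79.2 CPM in Col_Kyn and 82.9 and 84.0 CPM in wei8tar2_MS, against 90.2 and 83.8 CPM in Col_MS. Only Col_Kyn replicate 1 stood apart, at the top. AFB2 (AT3G26810, chr3:9867652-9870782), a close relative of AFB3, had 87.8 and 80.9 CPM in Col_Kyn and 89.9 and 79.8 CPM in wei8tar2_MS, against 78.1 and 79.5 CPM in Col_MS. It was the only receptor whose libraries in either condition lay all above Col_MS, by 0.10 ± 0.11 with Col_Kyn and 0.11 ± 0.11 with wei8tar2_MS (adjusted p = 0.684 and 0.625). AFB3 (AT1G12820, chr1:4368760-4371298) had 45.8 and 45.6 CPM in Col_Kyn and 44.2 and 45.9 CPM in wei8tar2_MS, against 45.0 and 47.7 CPM in Col_MS, the narrowest range of the class at 1.08 between highest and lowest.

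AFB4 and AFB5 form the branch of the family known for the response to the auxin-like herbicide picloram. AFB4 (AT4G24390, chr4:12613076-12616238) had 17.8 and 20.7 CPM in Col_Kyn and 18.7 and 18.4 CPM in wei8tar2_MS, against 19.1 and 18.0 CPM in Col_MS. AFB5 (AT5G49980, chr5:20333897-20336671) had 69.1 and 71.6 CPM in Col_Kyn and 70.9 and 70.9 CPM in wei8tar2_MS, against 68.8 and 77.6 CPM in Col_MS. Both overlapped Col_MS in each condition. Over the class, standard errors were 0.095 to 0.13, and for 6 of 6 receptors both intervals lay within 1.5-fold in each direction.

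The Aux/IAA class varied more between libraries, with a median ratio of highest to lowest of 1.45 over its 26 tested genes, and its position against Col_MS depended on which Col_MS library it was set against. With Col_Kyn, 19 of 26 tested Aux/IAA genes had a negative fold change and the median was -0.20, where 11279 of 21326 tested genes were negative and the median was -0.02. With wei8tar2_MS, 18 of 26 were negative and the median was -0.084, beside 11351 of 21326 and -0.023. Within Col_MS itself, 20 of the 26 genes were lower in replicate 1 than in replicate 2, by a median of -0.26 on the scale of log2(CPM + 0.5). Over all tested genes that median was 0.00048, and within Col_Kyn and wei8tar2_MS the Aux/IAA medians were 0.0040 and -0.021. The gap between the 2 Col_MS libraries was therefore larger than the median difference of the class between either condition and Col_MS.

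Without Col_MS replicate 1, 22 of 26 Aux/IAA genes were negative with Col_Kyn (median -0.30) and 19 with wei8tar2_MS (median -0.24). At an unadjusted p under 0.05 there were then 5 and 7 of them, beside 14.3% and 17.1% of all tested genes, and 0 were called. Without Col_MS replicate 2, 14 were negative with Col_Kyn (median -0.025) and 9 with wei8tar2_MS (median 0.066), so that the sign of the second median turned. In that setting edgeR called 4.65% and 7.71% of all tested genes, and 1 member in each comparison, IAA3. No other of the 13 alternative settings called a member.

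**Figure D3:**
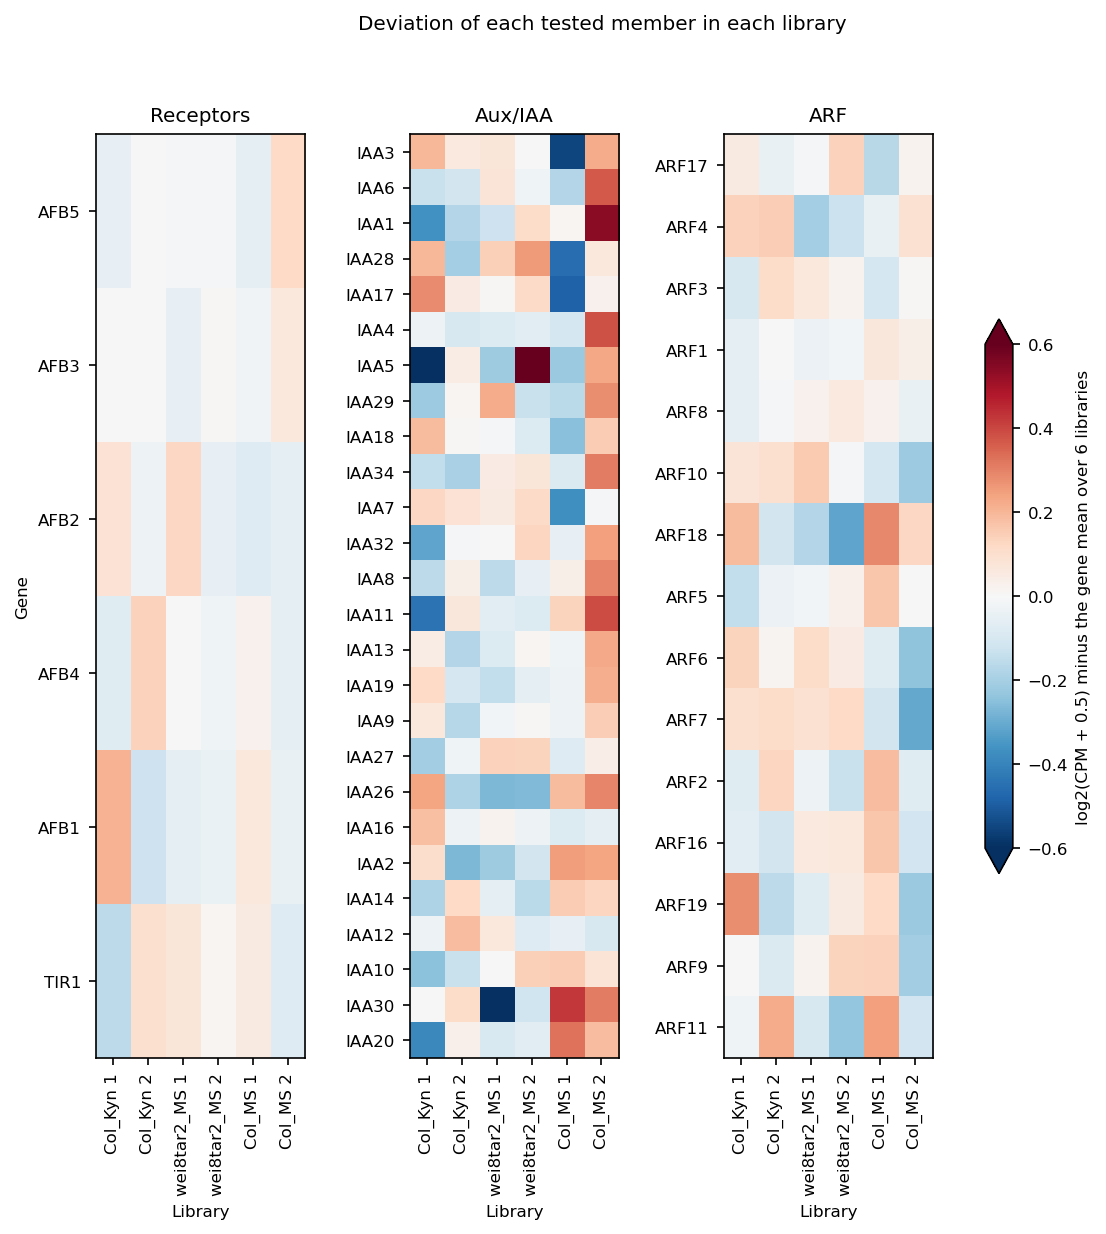
Colour map of log2(CPM + 0.5) minus the gene's mean over 6 libraries for the 47 tested members, 1 column per library, genes ordered within each class from lowest to highest in Col_MS replicate 1 relative to replicate 2; colours saturate at the ends of the scale. The Col_MS 2 column is mostly red for Aux/IAA genes, 20 of 26 of which were lower in Col_MS replicate 1, while 12 of 15 ARF genes were higher there.

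IAA3 (SHY2, AT1G04240, chr1:1128149-1129689), a repressor known for its role where auxin and cytokinin meet in the root meristem, was named after its values were seen. It had 88.6 and 80.3 CPM in Col_Kyn and 81.2 and 77.3 CPM in wei8tar2_MS, against 52.6 and 90.1 CPM in Col_MS. Col_MS held both the lowest and the highest of the 6 values. With all libraries its log2 fold changes were 0.24 ± 0.22 and 0.15 ± 0.22 (adjusted p = 0.622 and 0.750). Without Col_MS replicate 2 they were 0.70 ± 0.12 with Col_Kyn (edgeR adjusted p = 0.0311, over all alternatives 0.0311 to 0.813) and 0.62 ± 0.12 with wei8tar2_MS (0.0319, over all alternatives 0.0319 to 0.945).

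The most abundant repressors, IAA7 and IAA17, had higher fitted levels in both conditions than in Col_MS, without passing the test. IAA7 (AXR2, AT3G23050, chr3:8194606-8197161), in which a degron mutation gives auxin-resistant dwarfs, had 426 and 415 CPM in Col_Kyn and 405 and 422 CPM in wei8tar2_MS, against 302 and 387 CPM in Col_MS. Neither condition overlapped Col_MS, and the log2 fold changes were 0.29 ± 0.14 with Col_Kyn and 0.26 ± 0.14 with wei8tar2_MS (adjusted p = 0.354 and 0.341). IAA17 (AXR3, AT1G04250, chr1:1136078-1138663), a neighbour of IAA3 on chromosome 1, had 392 and 333 CPM in Col_Kyn and 324 and 349 CPM in wei8tar2_MS, against 230 and 328 CPM in Col_MS. wei8tar2_MS overlapped Col_MS and Col_Kyn did not, at 0.38 ± 0.18 and 0.27 ± 0.18 for Col_Kyn and wei8tar2_MS (adjusted p = 0.343 and 0.438). In both genes Col_MS replicate 1 was the lowest of the 6 libraries. Leaving out single libraries moved the IAA17 fold change with Col_Kyn between 0.15 and 0.67, and that of IAA7 between 0.12 and 0.49. With wei8tar2_MS the ranges were 0.038 to 0.58 for IAA17 and 0.093 to 0.48 for IAA7.

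The largest negative fitted values of the class with Col_Kyn were those of IAA5, IAA30 and IAA1. IAA1 (AXR5, AT4G14560, chr4:8360996-8362033), an auxin-inducible repressor whose promoter is printed above, had 4.65 and 5.38 CPM in Col_Kyn and 5.58 and 6.66 CPM in wei8tar2_MS, against 6.19 and 9.17 CPM in Col_MS. Both Col_Kyn libraries lay below Col_MS, while wei8tar2_MS overlapped it. The log2 fold changes were -0.62 ± 0.23 with Col_Kyn and -0.33 ± 0.23 with wei8tar2_MS (adjusted p = 0.243 and 0.452). With single libraries left out they lay between -0.88 and -0.30 with Col_Kyn and between -0.58 and 0.01 with wei8tar2_MS, the upper end of the second without Col_MS replicate 2.

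IAA5 (AT1G15580, chr1:5365512-5366497), also known as an early auxin-induced gene, was scarce: 0.288 and 0.801 CPM in Col_Kyn and 0.588 and 1.77 CPM in wei8tar2_MS, against 0.582 and 0.983 CPM in Col_MS. Each group spread widely and all groups overlapped. Its fitted values had opposite signs, -0.63 ± 0.72 with Col_Kyn and 0.58 ± 0.64 with wei8tar2_MS (adjusted p = 0.693 and 0.658). Neither sign held when single libraries were left out: the values lay between -1.43 and 0.03 with Col_Kyn and between -0.41 and 1.17 with wei8tar2_MS, with the sign turned without Col_Kyn replicate 1 in the first case and without wei8tar2_MS replicate 2 in the second. IAA30 (AT3G62100, chr3:22995686-22996809), a noncanonical Aux/IAA without the degron, had 0.385 and 0.458 CPM in Col_Kyn and 0.0367 and 0.315 CPM in wei8tar2_MS, against 0.691 and 0.597 CPM in Col_MS. The value of 0.0367 CPM is below the floor of that library. Both conditions lay below Col_MS, at -0.63 ± 0.64 and -1.87 ± 0.72 (adjusted p = 0.660 and 0.203), and leaving out single libraries moved the second value between -3.97 and -1.02.

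With wei8tar2_MS the lowest adjusted p of any member was that of IAA26 (PAP1, AT3G16500, chr3:5612203-5614803), a repressor also known as a partner of a viral replicase. It had 43.9 and 32.6 CPM in Col_Kyn and 30.7 and 30.8 CPM in wei8tar2_MS, against 42.5 and 45.7 CPM in Col_MS. The wei8tar2_MS libraries were the lowest of the 6, while Col_Kyn was divided between its 2 libraries. The log2 fold change was -0.52 ± 0.15 with wei8tar2_MS (adjusted p = 0.114) and -0.20 ± 0.15 with Col_Kyn (0.522). IAA28 (AT5G25890, chr5:9033204-9035140), a repressor known from lateral root initiation, had 17.6 and 13.2 CPM in Col_Kyn and 16.9 and 18.3 CPM in wei8tar2_MS, against 11.0 and 16.0 CPM in Col_MS, and stood at 0.38 ± 0.21 with wei8tar2_MS (adjusted p = 0.345).

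Aux/IAA genes fall by structure into those with a canonical degron, which auxin can turn over, and 6 without it (IAA20, IAA30, IAA31, IAA32, IAA33 and IAA34). Of these 6, 4 passed the filter, and all 4 had negative fold changes in both comparisons, with medians of -0.47 with Col_Kyn and -0.23 with wei8tar2_MS. The 22 tested canonical genes had medians of -0.17 and -0.059. Among the 4, IAA30 and IAA34 were scarce, with 1 to 19 and 10 to 29 reads per library. In each comparison 2 of the 4 had an interval within 2-fold, so the medians rest on poorly placed values. Without Col_MS replicate 2 the medians of the 4 were -0.32 with Col_Kyn and -0.12 with wei8tar2_MS, and with wei8tar2_MS only 2 of the 4 were then negative. Without wei8tar2_MS replicate 1, 3 of the 4 were negative with wei8tar2_MS. The summed level of the 6 was 19.1 and 25.0 CPM in Col_Kyn and 23.2 and 24.5 CPM in wei8tar2_MS, against 29.1 and 29.2 CPM in Col_MS. Most of it was IAA20 (AT2G46990, chr2:19307714-19309071), named after its values were seen, with 12.6 and 17.0 CPM in Col_Kyn and 15.6 and 15.9 CPM in wei8tar2_MS, against 21.0 and 19.0 CPM in Col_MS. Both conditions lay below Col_MS, at -0.45 ± 0.16 and -0.35 ± 0.16, and neither passed (adjusted p = 0.234 and 0.269). Unlike most of its class, IAA20 was not low in Col_MS replicate 1.

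A split of the class by the promoter motifs gave similar medians. The 14 tested Aux/IAA genes with TGTCTC or TGTCGG in the window had medians of -0.24 with Col_Kyn and -0.10 with wei8tar2_MS, and the 12 without either had -0.19 and -0.059. IAA19 (MSG2, AT3G15540, chr3:5264001-5265695), a repressor of hypocotyl bending with 3 copies of TGTCTC in its window, had 112 and 96.1 CPM in Col_Kyn and 93.2 and 99.0 CPM in wei8tar2_MS, against 101 and 120 CPM in Col_MS. It stood at -0.088 ± 0.13 and -0.20 ± 0.13, with adjusted p of 0.780 and 0.429.

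IAA15, IAA31 and IAA33 had too few reads to be tested. IAA15 had 3 and 0 reads in Col_Kyn and 1 and 0 in wei8tar2_MS, against 0 and 0 in Col_MS. IAA31 had 7 and 4 reads in Col_Kyn and 2 and 3 in wei8tar2_MS, against 5 and 15 in Col_MS. IAA33 had 1 and 2 reads in Col_Kyn and 2 and 2 in wei8tar2_MS, against 4 and 0 in Col_MS. At this depth no difference in them was detectable.

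The ARF class divides into activators with a glutamine-rich middle region, repressors, and the ARF10, ARF16 and ARF17 branch. Over 15 tested genes the medians were 0.022 with Col_Kyn and 0.035 with wei8tar2_MS, and 15 of 15 and 13 of 15 had intervals within 1.5-fold. In Col_MS, 12 of 15 were higher in replicate 1 than in replicate 2, by a median of 0.16, the opposite lean to that of the Aux/IAA genes. Without Col_MS replicate 2 the medians were -0.049 and -0.066.

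ARF7 (NPH4, AT5G20730, chr5:7016445-7022179), an activator required for hypocotyl phototropism and, with ARF19, for lateral roots, had 82.6 and 83.6 CPM in Col_Kyn and 82.4 and 84.1 CPM in wei8tar2_MS, against 71.7 and 62.4 CPM in Col_MS. The 4 libraries of both conditions lay within a few CPM of each other and above Col_MS. The log2 fold change was 0.31 ± 0.11 in each (adjusted p = 0.223 with Col_Kyn and 0.167 with wei8tar2_MS), and leaving out single libraries kept it between 0.23 and 0.41 with Col_Kyn. ARF6 (AT1G30330, chr1:10685822-10690988), an activator of hypocotyl growth and flower maturation, had 144 and 133 CPM in Col_Kyn and 142 and 136 CPM in wei8tar2_MS, against 125 and 111 CPM in Col_MS. It too lay above Col_MS in both conditions, at 0.23 ± 0.11 in each (adjusted p = 0.352 and 0.289).

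Of the remaining activators, ARF8 and ARF19 overlapped Col_MS in both conditions. ARF5 lay below Col_MS in both Col_Kyn libraries and overlapped it in wei8tar2_MS. ARF5 (MONOPTEROS, AT1G19850, chr1:6886669-6891404), which patterns the embryo and vasculature, had 18.3 and 19.8 CPM in Col_Kyn and 20.1 and 20.8 CPM in wei8tar2_MS, against 22.9 and 20.3 CPM in Col_MS. It stood at -0.19 ± 0.12 with Col_Kyn and -0.081 ± 0.12 with wei8tar2_MS. ARF8 (AT5G37020, chr5:14629453-14634454), which acts beside ARF6, had 43.6 and 45.1 CPM in Col_Kyn and 46.3 and 47.4 CPM in wei8tar2_MS, against 46.3 and 44.0 CPM in Col_MS, at -0.028 ± 0.095 and 0.052 ± 0.094. Whether ARF6 and ARF8, which share the miR167 site, differed from each other was not tested. ARF19 (AT1G19220, chr1:6627683-6633133), the close relative of ARF7, had 31.0 and 22.8 CPM in Col_Kyn and 24.2 and 26.5 CPM in wei8tar2_MS, against 27.7 and 21.8 CPM in Col_MS, with overlap throughout (0.12 ± 0.18 and 0.035 ± 0.18).

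Among the repressor ARF genes, ARF2 (AT5G62000, chr5:24910191-24915395), known for limiting organ size and promoting ageing, had 203 and 234 CPM in Col_Kyn and 209 and 195 CPM in wei8tar2_MS, against 243 and 203 CPM in Col_MS. All groups overlapped (-0.029 ± 0.14 and -0.14 ± 0.14). ARF18 (AT3G61830, chr3:22887889-22891455) had 40.3 and 32.6 CPM in Col_Kyn and 31.2 and 28.2 CPM in wei8tar2_MS, against 43.1 and 38.5 CPM in Col_MS. Only wei8tar2_MS lay apart from Col_MS, at -0.46 ± 0.13 (adjusted p = 0.121), with -0.16 ± 0.13 for Col_Kyn (0.583). ARF12 had no read in any library. It belongs to a cluster of near-identical genes on chromosome 1, and reads that map to several places were not counted, so that a 0 there is uncertain; of 7 related ARF genes outside the 51 (ARF13, ARF14, ARF15 and ARF20 to ARF23), 5 had a read, and the highest value was 0.0789 CPM.

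Over the 9 receptors and ARF genes with a site for miR393, miR160 or miR167 the median was 0.045 with Col_Kyn and 0.062 with wei8tar2_MS, and 0 were called. ARF10, ARF16 and ARF17, which share the miR160 site, stood at 0.25 ± 0.11, -0.12 ± 0.12 and 0.078 ± 0.14 with Col_Kyn and at 0.24 ± 0.11, 0.029 ± 0.12 and 0.14 ± 0.14 with wei8tar2_MS. TAS3, whose small RNAs target ARF2, ARF3 and ARF4, had 11.3 and 14.4 CPM in Col_Kyn and 12.9 and 13.3 CPM in wei8tar2_MS, against 12.6 and 10.7 CPM in Col_MS.

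Set directly against each other, the mutant line and the kynurenine-treated seedlings gave 0 calls among 47 members, where 6 of 21326 genes were called (0.0281% by edgeR, 0.0281% by limma-voom and 0.272% by DESeq2, each with 0 members). There was 1 member with an unadjusted p under 0.05, against 4.32% of all tested genes. In 10 members both wei8tar2_MS libraries lay above both Col_Kyn libraries and in 6 below, beside 16.8% and 18.8% of all tested genes. The class medians were -0.0069 for receptors, 0.0062 for Aux/IAA and 0.0035 for ARF genes. The member with the unadjusted p under 0.05 was ARF4 (AT5G60450, chr5:24308255-24312784), a repressor active in organ polarity, with 49.6 and 52.2 CPM in wei8tar2_MS, against 63.1 and 63.5 CPM in Col_Kyn, and a log2 fold change of -0.31 ± 0.10 (edgeR adjusted p = 0.994). Col_MS, with 55.4 and 61.0 CPM, lay between.

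In the direct comparison the largest fitted value of each sign belonged to a scarce gene. IAA5 stood at 1.21 ± 0.70 and IAA30 at -1.24 ± 0.78. IAA34 (AT1G15050), a noncanonical Aux/IAA, had 0.771 and 0.789 CPM in wei8tar2_MS, against 0.609 and 0.572 CPM in Col_Kyn, and stood at 0.39 ± 0.42. IAA10 (AT1G04100), a repressor of the IAA10 to IAA13 branch, had 3.82 and 4.26 CPM in wei8tar2_MS, against 3.14 and 3.43 CPM in Col_Kyn (0.30 ± 0.20), and IAA26 stood at -0.32 ± 0.15. Their adjusted p was 1.

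The rest of the pathway was read from lists. Of 14 genes of the receptor ligase and of RUB conjugation, which assemble and cycle the ubiquitin ligase, 0 were called in any comparison and the medians were 0.018 with Col_Kyn and 0.0039 with wei8tar2_MS. CUL1, the scaffold subunit, had 250 and 229 CPM in Col_Kyn and 234 and 243 CPM in wei8tar2_MS, against 248 and 224 CPM in Col_MS, and AXR1, an enzyme of RUB activation, stood at -0.17 ± 0.13 and -0.22 ± 0.13. Of 6 corepressor genes (TPL, TPR1 to TPR4 and the histone deacetylase HDA19) 0 were called, with medians of 0.071 and 0.020. TPL, the TOPLESS gene itself, had 208 and 200 CPM in Col_Kyn and 204 and 188 CPM in wei8tar2_MS, against 213 and 174 CPM in Col_MS.

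The listed targets downstream of the ARF proteins had larger fitted changes. The 15 early auxin-responsive genes outside the Aux/IAA family were listed with earlier results of these data known. Their shared direction and the size of their changes are therefore a description. Of the 15, 12 were tested, and 12 of 12 had negative fold changes in both comparisons, with medians of -1.18 with Col_Kyn and -0.91 with wei8tar2_MS. In each, GH3.5 and GH3.6 were called lower (2 of 12, where 0.366% and 1.08% of all tested genes were called). Both encode enzymes that conjugate auxin to amino acids. GH3.6 had 19.5 and 15.8 CPM in Col_Kyn and 16.9 and 17.9 CPM in wei8tar2_MS, against 43.0 and 37.1 CPM in Col_MS (-1.18 ± 0.14, adjusted p = 0.0264, and -1.20 ± 0.14, adjusted p = 0.0252). Without Col_MS replicate 1 the list had 0 calls in each comparison (medians -0.96 and -0.74), and without Col_MS replicate 2 it had 4 in each (-1.25 and -0.91), with 11 of 12 negative with Col_Kyn and 10 of 12 with wei8tar2_MS. Calls were also lost without other libraries: with Col_Kyn the list had 0 without Col_Kyn replicate 2 or either wei8tar2_MS library and 1 without Col_Kyn replicate 1, and with wei8tar2_MS it had 0 without either wei8tar2_MS library and 5 or 4 without Col_Kyn replicate 1 or 2. With only the 2 groups compared in the fit, the list had 0 calls with Col_Kyn and 5 with wei8tar2_MS. The median of this list was negative whichever Col_MS library was left out. The Aux/IAA median was negative with Col_Kyn (-0.30 and -0.025) and turned to 0.066 with wei8tar2_MS when Col_MS replicate 2 was left out. Because the list was drawn up with earlier results known, its steadier median is no measure of a difference from the Aux/IAA genes.

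**Figure D4:**
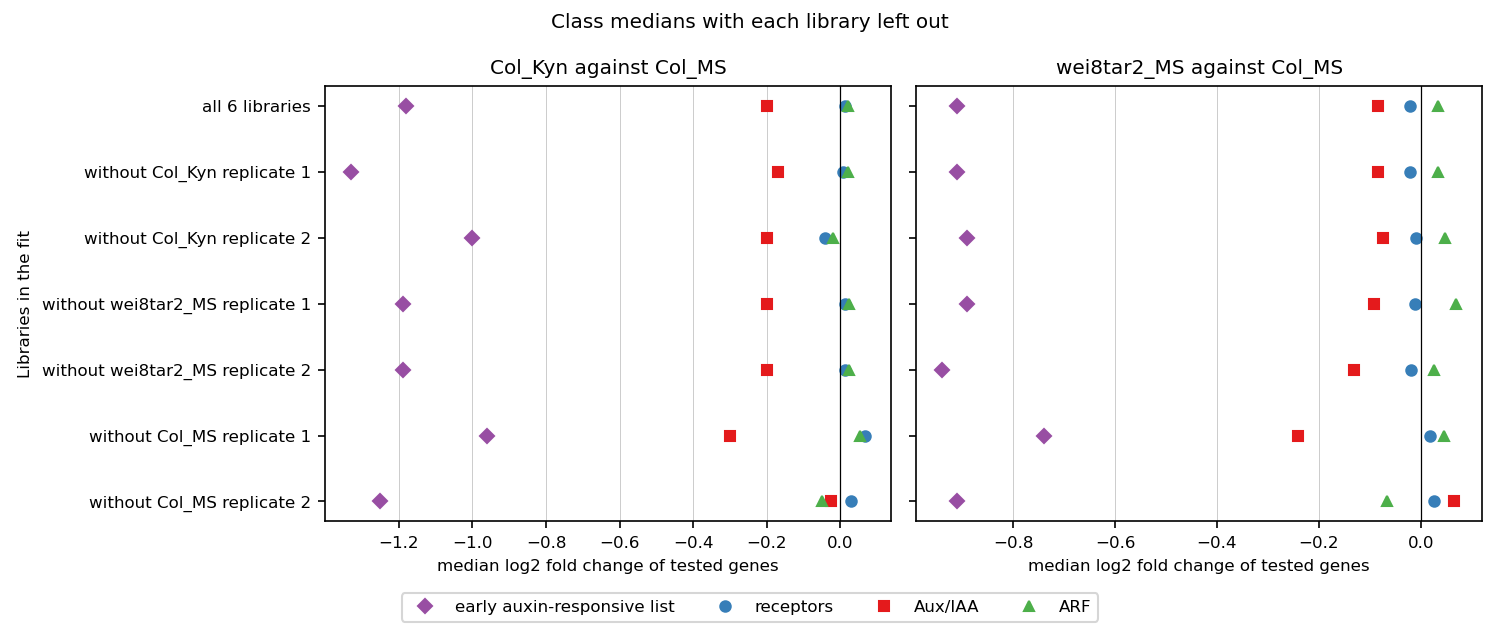
Median log2 fold change of the tested receptors (6), Aux/IAA genes (26), ARF genes (15) and early auxin-responsive genes (12) with all 6 libraries and with each library left out, for Col_Kyn and wei8tar2_MS, each against Col_MS. The Aux/IAA median lies between -0.30 and -0.025 with Col_Kyn and between -0.24 and 0.066 with wei8tar2_MS, both ends set by leaving out a Col_MS library. The early auxin-responsive median stays at -0.74 or below, in a list drawn up with earlier results of these data known.

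Marker lists of tissues moved with some of these differences. The summed root hair markers (6 genes) had 83.3 and 82.0 CPM in Col_Kyn and 80.0 and 85.6 CPM in wei8tar2_MS, against 110 and 190 CPM in Col_MS, and 6 of 6 had negative fold changes in both comparisons. The summed seed reserve markers (8 genes) had 31.7 and 4.23 CPM in Col_Kyn and 45.3 and 27.9 CPM in wei8tar2_MS, against 86.2 and 20.9 CPM in Col_MS, and EM1 had no read in Col_Kyn. The summed green tissue markers (5 genes) had 4408 and 9912 CPM in Col_Kyn and 7165 and 7304 CPM in wei8tar2_MS, against 5769 and 6354 CPM in Col_MS. The root tip and cap markers (8 genes) summed to 85.5 and 90.5 CPM in Col_Kyn and 91.7 and 86.2 CPM in wei8tar2_MS, against 89.9 and 76.1 CPM in Col_MS, a sum carried by SCR and SHR. Their directions were mixed: of 7 tested, 5 were negative and 2 positive with Col_Kyn, and 4 negative and 3 positive with wei8tar2_MS. With wei8tar2_MS their log2 fold changes ran from -2.55 to 1.46. PLT1, a root meristem regulator, had 0.160 and 0.114 CPM in Col_Kyn and 0.220 and 0.158 CPM in wei8tar2_MS, against 1.56 and 0.702 CPM in Col_MS. No marker was called. Like the Aux/IAA genes, the root hair markers were lower in Col_MS replicate 1 than in replicate 2, and the seed reserve markers were higher there. Their part in the Aux/IAA values was not tested.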

How the data were processed

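Seedling messenger RNA was sequenced in 6 libraries. The submitters' processing notes name TopHat 1.3.0 and the build TAIR10. The deposited tables give uniquely mapped reads per gene as raw counts, per the file headers, with a gene length and the authors' RPKM, which was used here only to check that counts, lengths and totals belong together. Which program counted the reads, with which strand setting and gene models, is not given in the sources used here. The library kit described in the labels does not mark strand, so overlapping genes on opposite strands cannot be told apart. Genes not listed in a library were taken as 0.

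Counts were fitted with edgeR 4.0.16 in R 4.3.3: TMM factors (0.964 to 1.03), which also scale the printed CPM, filterByExpr by group, and 1 coefficient per group over all 6 libraries, tested by quasi-likelihood. A call is a p under 0.05 after Benjamini-Hochberg adjustment over all 21326 tested genes. Each standard error is the size of the log2 fold change over the root of its F statistic, and intervals use the t distribution at 95%. DESeq2 1.42.0, limma 3.58.1 (voom), size factors, library totals, no filter, fits on the 2 groups alone, a replicate block and leaving out each library were alternatives. The scripts were tested on simulated data.

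Levels per kilobase use the longest spliced RefSeq transcript of TAIR10.1, since the listed lengths include introns. Genes were matched to that annotation by locus name (51 of 51 members); coordinates and sequences are RefSeq's, build TAIR10.1, and the files hold none. Floors cover counting error only, as reads carry no molecular identifier. Members and lists were chosen with earlier results of these data known. Genes were described one by one by a rule: any member called, the 2 highest per class, all receptors and activator ARF genes, and the 3 largest fitted values of each sign in each comparison; others so described are said to be named after their values were seen, or illustrate a printed sequence.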

Additional observations from a re-analysis of the deposited data

How the results depend on the processing

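Of 1833 values of single members under the alternatives, 1735 kept their position, 96 moved by more than their spread, and 2, both of IAA3, newly passed the test; none changed sign while called. The count of members called was 0 in all 3 comparisons under every alternative but 1, and leaving out libraries gave 0 to 1 with Col_Kyn, 0 to 1 with wei8tar2_MS and 0 in the direct comparison. The count of all genes called depended strongly on the setting. With Col_Kyn it was 78, and 409 with no filter, 750 with DESeq2, 50 with limma-voom, 0 with only the 2 groups compared and 0 to 992 with a library left out. With wei8tar2_MS it was 230, and 1113 with no filter, 1333 with DESeq2, 365 with only the 2 groups and 4 to 1644 with a library left out. In the direct comparison it was 6, and 12 with library totals alone, 26 with no filter, 58 with DESeq2, 11 with only the 2 groups and 4 to 17 with a library left out.

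With a library left out, the Aux/IAA median ranged from -0.30 to -0.025 with Col_Kyn and -0.24 to 0.066 with wei8tar2_MS, the receptor median from -0.041 to 0.068 and -0.020 to 0.026, and the ARF median from -0.049 to 0.053 and -0.066 to 0.070. In the direct comparison the ranges were -0.026 to 0.020 for receptors, -0.016 to 0.029 for Aux/IAA and -0.0063 to 0.025 for ARF genes. With library totals alone the receptor median was -0.052 with Col_Kyn, and the direct medians were 0.048, 0.060 and 0.058 for receptors, Aux/IAA and ARF genes. The cause of these shifts was not tested.

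The replicate numbers are shared between groups, but the deviations of same-numbered libraries correlated by 0.202 (Col_Kyn and Col_MS), 0.022 (wei8tar2_MS and Col_MS) and -0.039 (wei8tar2_MS and Col_Kyn), so they were not taken as pairs. With the replicate block, 130 genes were called with Col_Kyn, 367 with wei8tar2_MS and 12 in the direct comparison, and 0 members in each. With 2 libraries per group, members at a few reads (IAA5, IAA30, IAA34) had standard errors of 0.39 to 0.78, and changes smaller than about their intervals were not detectable there.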
